A study of Mus musculus with 6 samples.

Results

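The genes described here are the subunits of AMP-activated protein kinase (AMPK) and the kinases that switch it on, together with the partners of one of those kinases. They were taken as a named list of 10 genes, Prkaa1, Prkaa2, Prkab1, Prkab2, Prkag1, Prkag2, Stk11, Strada, Cab39 and Camkk2, because they belong to the pathway the study examined, and with earlier results of these libraries known. All 10 were among the 36137 genes with a matched transcript and among the 18506 genes tested. AMPK is the sensor of cellular energy in nearly all mammalian cells. It is a trimer of a catalytic α subunit, a scaffolding β subunit and a nucleotide-binding γ subunit, and it is active when the α subunit is phosphorylated in its activation loop and AMP or ADP rather than ATP is bound to γ. LKB1, encoded by Stk11, works in a complex with STRADα (Strada) and MO25α (Cab39), while CAMKK2 acts on the same loop in response to calcium. In macrophages AMPK restrains inflammatory signaling and favors oxidative metabolism.

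The cells were bone marrow-derived macrophages (BMDMs) of mice, harvested after 8 hours of hypoxia with serum starvation (HSS), a culture model of ischemia. Drp1 KO BMDMs came from LysM-Cre+/- Drp1 fl/fl mice, in which Cre driven by the lysozyme M promoter deletes the mitochondrial fission gene Drp1 (Dnm1l) in myeloid cells, and WT BMDMs from LysM-Cre+/- Drp1+/+ mice, so that both groups carry LysM-Cre. Both groups were cultured with L929-conditioned medium and 10% fetal bovine serum and received the same starvation medium and low oxygen at day 7. The sample labels give 2.1% oxygen and 10% L929 medium for all libraries, and the methods give other values for both. The study used mice of both sexes aged 8 to 12 weeks. No normoxic RNA library was analysed here. Marrow of mice was pooled per genotype, and whether the 3 libraries of a group came from separate pools was not stated, so a p-value here measures the spread between these libraries, which may be technical. The study asked how macrophage DRP1 acts on AMPK, and it followed the phosphorylated AMPK, LKB1 and CAMKK2 proteins. The values below are mRNA levels only, and phosphorylation is not visible in them.

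The 6 libraries held 23389488 to 32231206 estimated reads, and the 10 genes held between 34 reads (Prkaa2 in Drp1 KO library 1) and 16182 reads (Cab39 in Drp1 KO library 2). A floor of 3 counts lay at 0.0917 to 0.136 CPM, the counts scaled to a common library size, and every gene of the list was above it in every library. Dnm1l itself was at 69.9 to 75.1 CPM in WT and 58.7 to 66.3 CPM in Drp1 KO libraries (log2 fold change -0.23 ± 0.092 (SE), edgeR adjusted p = 0.248), a sum over its transcripts that also counts the parts outside the deletion. Its log2 fold change was -0.35 after a GC correction (adjusted p = 0.0683) and -0.35 with the replicate block added (adjusted p = 0.0128). The summed level of 7 macrophage markers was 13340 to 14730 CPM in WT and 11920 to 14340 CPM in Drp1 KO, most of it Lyz2. Of these 7, 3 had an edgeR adjusted p under 0.05, Fcgr1 on the higher side (log2 fold change 1.34) and Csf1r and Mertk on the lower (both -0.52), against 3.36% of all genes. That of 8 neutrophil markers was 6.86 to 21.1 CPM in WT and 20.5 to 48.4 CPM in Drp1 KO, with the 6 tested markers all on the positive side, 4 of them past the study's criteria (7.19% of all genes were higher by these) and at an adjusted p under 0.05 with the replicate block, and Ly6g at 0 in all libraries. The other marker sums were at most 5.83 CPM in any library for dendritic cells (1 of 5 markers, Zbtb46, was lower by the study's criteria, log2 fold change -0.77), 4.05 CPM for lymphocytes and 3.06 CPM for fibroblasts. Whether these marker differences have a part in the values below was not tested, and in bulk RNA fewer cells of a type and less RNA per cell cannot be told apart.

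Of the 10 genes, Camkk2 was the single gene that met the criteria the study used, a log2 fold change beyond 0.322 in either direction with an unadjusted p under 0.05, and it was higher in Drp1 KO BMDMs. These criteria were met by 12.7% of all genes tested, so 1 of 10 is close to the background. None of the 10 had an edgeR adjusted p under 0.05, against 3.36% of all genes. An unadjusted p under 0.05 was found for 1 of 10, against 16.4% of all genes, and DESeq2 gave 1 gene of the list an adjusted p under 0.05, against 6.24% of all genes. The log2 fold changes were above 0 in 5 genes and below 0 in 5 genes, with a median of -0.0281 beside 0.0046 for all genes tested. The CPM values of the groups did not overlap for 2 genes, Camkk2 on the higher and Strada on the lower side, against 21.9% of all genes. For 6 of the 10 genes the 95% interval of the fold change lay within 1.5-fold in either direction, so that larger changes of those mRNAs lie outside the interval.

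**Figure D1:**
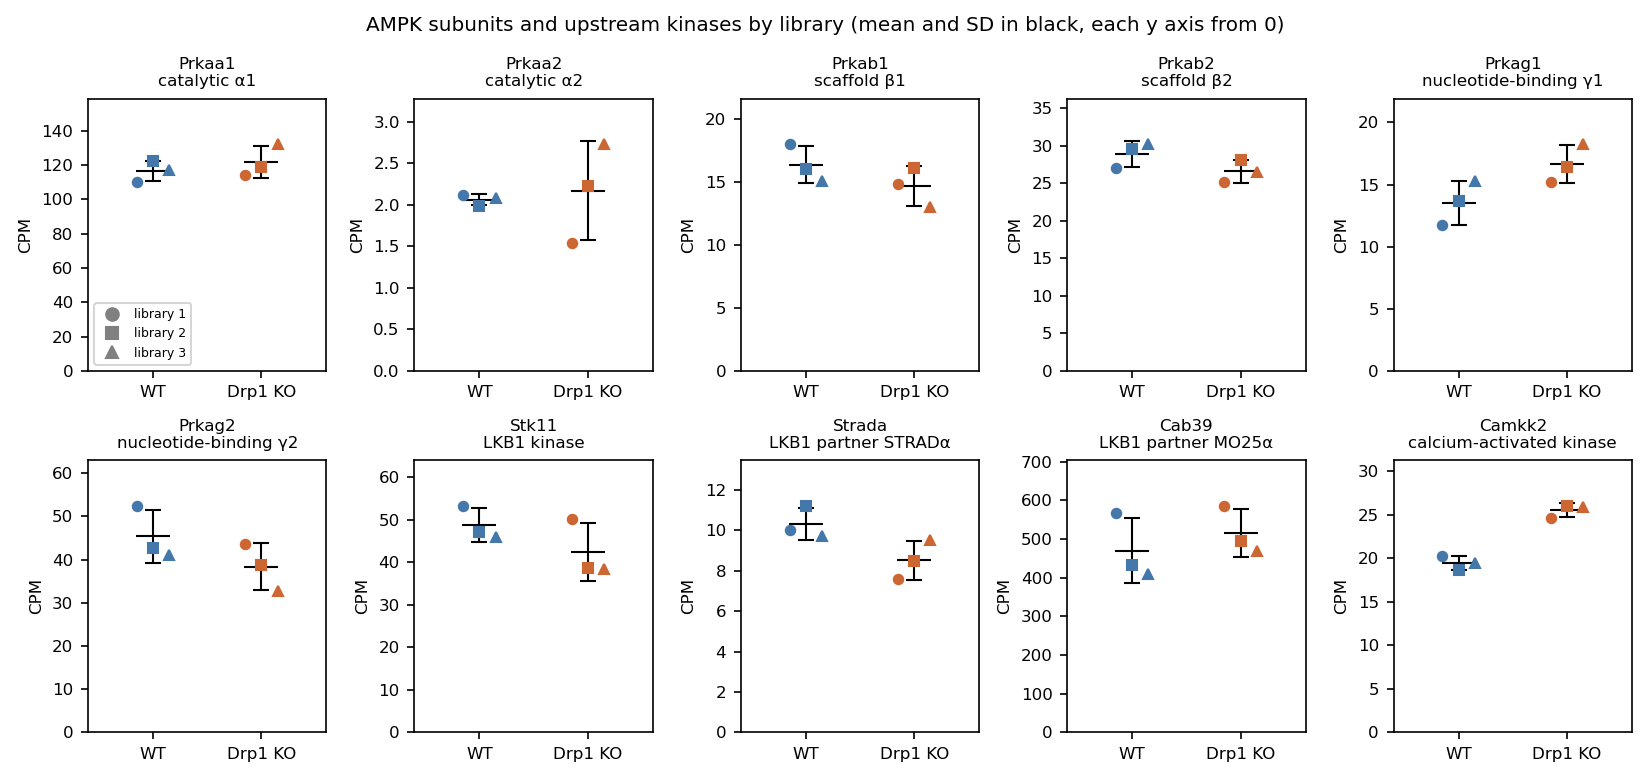
Level of each gene in CPM (y axis, from 0) in the 3 WT and 3 Drp1 KO libraries (points, shaped by library number), with the mean and SD in black. Camkk2 is the panel in which all Drp1 KO libraries stand clearly above all WT libraries, and library 1 is the highest of its group for Cab39, Stk11 and Prkag2 in both genotypes.

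The libraries carry replicate numbers 1 to 3 in both groups, and same-numbered libraries deviated together from their group means (correlations 0.539, 0.218 and 0.352). WT library 2 correlated more with Drp1 KO library 3 (0.339) than with Drp1 KO library 2. The pairing used for the replicate block was taken from these data. Library 1 showed this for several genes of the list: Cab39, Stk11 and Prkag2 were highest in library 1 of WT and in library 1 of Drp1 KO, and Prkag1 was lowest in library 1 of both. The direction of Drp1 KO against WT was the same in all 3 same-numbered pairs for 7 of the 10 genes, against 43.3% of all genes. Of these, 3 were higher (Prkag1, Cab39 and Camkk2) and 4 were lower (Prkab2, Prkag2, Stk11 and Strada). With the replicate number as a block, 5 genes had an unadjusted p under 0.05 (Camkk2, Prkag1, Prkag2, Stk11 and Strada), against 25.1% of all genes, and Camkk2 alone had an adjusted p under 0.05, against 12.0% of all genes. The edgeR unadjusted p of Stk11 (0.101) and Strada (0.0505) was over 0.05 when the GC correction was added to the block. The number past the study's criteria also rested on single libraries. Without Drp1 KO library 1 it was 4 (Camkk2 and Prkag1 higher, Prkag2 and Stk11 lower; 15.2% of all genes), and without WT library 3 it was 2 (Camkk2 and Prkag1; 11.2% of all genes). With length-scaled counts it was 0, against 13.6% of all genes.

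Camkk2 (chr5:122869233-122917739, minus strand, GRCm39) encodes the calcium- and calmodulin-dependent kinase that phosphorylates AMPK when intracellular calcium rises. Its level was 20.3, 18.7 and 19.4 CPM in WT libraries 1 to 3 and 24.7, 26.1 and 25.9 CPM in Drp1 KO libraries 1 to 3. The lowest Drp1 KO library was above the highest WT library, and the spread within each group was small, with means of 19.5 ± 0.783 and 25.6 ± 0.783 CPM (SD, n = 3). The log2 fold change was 0.39 ± 0.10 (SE), a fold of 1.31 with a 95% interval of 1.12 to 1.54 (edgeR, unadjusted p = 0.0030, adjusted p = 0.0700). The 3 same-numbered pairs gave log2 ratios of 0.28, 0.48 and 0.42. The adjusted p was 0.0161 with the replicate block, 0.0333 in DESeq2 and 0.0414 after a correction for GC content (4.01% of all genes under 0.05), and it ran from 0.0110 to 0.309 over the 16 other settings. All of these settings kept the direction and an unadjusted p under 0.05. With counts scaled for transcript length the log2 fold change was 0.29, under the study's threshold of 0.322 on that scale.

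The bases before the annotated start of Camkk2 are shown because it was the single gene of the list past the study's criteria. Its transcript Camkk2-201 has 4861 bases in the quantified version and 5155 in the annotation, so the quantified start may differ. The line gives the 200 bases upstream, chr5:122917740-122917939 of GRCm39 on the minus strand, 5′ to 3′ in the direction of transcription, with CpG dinucleotides in capitals.
Camkk2: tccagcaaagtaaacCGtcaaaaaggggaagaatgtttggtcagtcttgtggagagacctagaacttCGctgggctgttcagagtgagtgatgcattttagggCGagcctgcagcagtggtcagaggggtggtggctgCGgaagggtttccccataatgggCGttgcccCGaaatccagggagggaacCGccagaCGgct
It holds 8 CpG dinucleotides and 55.5% G and C. The ratio of CpG observed to expected is 0.557, beside a median of 0.416 over the same window of 21770 protein-coding genes, of which 61.9% have a lower ratio. Of 3 motifs searched on both strands, it holds none. The GC box GGGCGG matches in 28.5% of all such windows, the CCAAT box, spelled as its name, in 31.8% and the TATA box TATAAA in 10.1%.

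**Figure D2:**
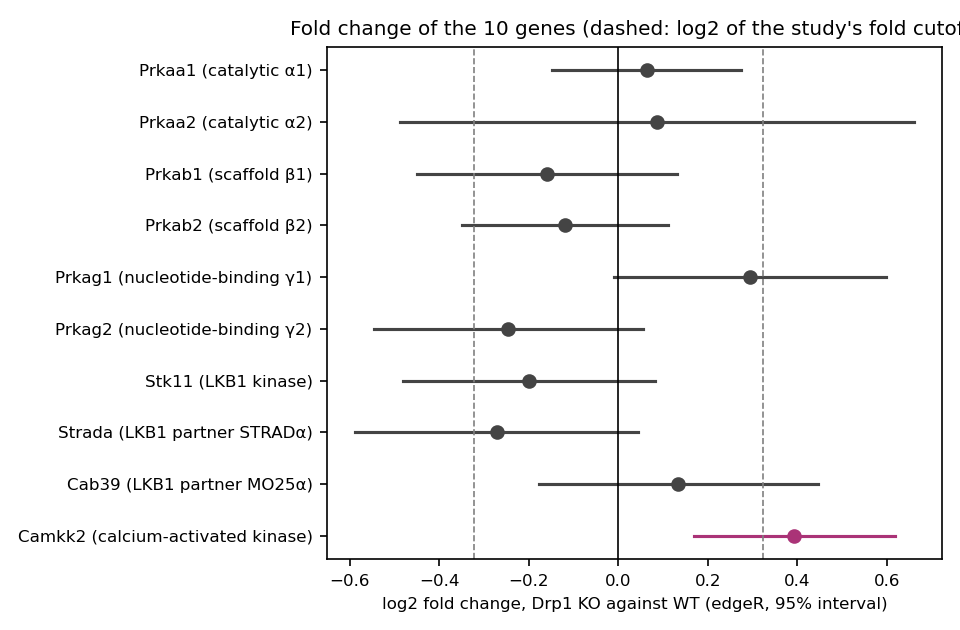
Log2 fold change of Drp1 KO against WT (x axis, edgeR) for each gene (points) with its 95% interval (lines), with dashed lines at the study's cutoff of 0.322 in either direction and the gene past the study's criteria in purple. The interval of Camkk2 lies above 0, from 0.17 to 0.62, and those of the other 9 genes include 0.

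The 3 genes of the LKB1 complex lay on both sides of 0, and none met the study's criteria or had an unadjusted p under 0.05 in the fit of all 6 libraries without the block. Stk11 (chr10:79951597-79966520, plus strand) encodes the kinase LKB1, which phosphorylates AMPK and 12 related kinases summarized below. Its level was 53.3, 47.0 and 45.8 CPM in WT and 50.3, 38.7 and 38.4 CPM in Drp1 KO libraries. Every Drp1 KO library was below the WT library of the same number, but Drp1 KO library 1 lay among the WT values, so the groups overlapped. The log2 fold change was -0.20 ± 0.13 (SE; edgeR adjusted p = 0.498), -0.35 without Drp1 KO library 1 (unadjusted p = 0.0115, past the study's criteria; adjusted p = 0.117) and -0.13 when either of the other Drp1 KO libraries or WT library 1 was left out, or after the GC correction. Reads of Stk11 are partly ambiguous, since 4.27% of its 31-base words also occur in transcripts of Cbarp, which overlaps it on the opposite strand.

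Strada (chr11:106053736-106092994, minus strand) encodes the pseudokinase STRADα, which binds LKB1 and holds it active in the cytoplasm. It had 10.0, 11.2 and 9.71 CPM in WT and 7.58, 8.46 and 9.51 CPM in Drp1 KO libraries. The groups did not overlap, but WT library 3 and Drp1 KO library 3 were close, and the log2 ratios of the pairs were -0.40, -0.41 and -0.03. The log2 fold change was -0.27 ± 0.14 (SE; edgeR adjusted p = 0.390). With the replicate block the unadjusted p was 0.0257 for Stk11 and 0.0486 for Strada, and the adjusted p 0.129 and 0.196. With the GC correction added to the block, the edgeR unadjusted p was 0.101 for Stk11 and 0.0505 for Strada. Of the 31-base words of Strada, 4.65% occur in other genes, among them Ccdc47, which overlaps it on the same strand.

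Cab39 (chr1:85721104-85779304, plus strand) encodes MO25α, the scaffold that stabilizes the LKB1 complex, and it was the most abundant of the 10 genes. Its level was 567, 434 and 409.9 CPM in WT and 586, 494 and 468 CPM in Drp1 KO libraries. The difference between library 1 and the other libraries of its group was larger than the difference between the genotypes. The log2 ratios of the pairs were 0.05, 0.19 and 0.19, and the log2 fold change was 0.13 ± 0.14 (SE; edgeR adjusted p = 0.725). It rested on single libraries, at 0.29 without WT library 1 (unadjusted p = 0.0375, adjusted p = 0.239) and 0.20 without Drp1 KO library 3. Leaving out Drp1 KO library 1, WT library 3 or WT library 2 gave 0.02, 0.03 and 0.06.

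The catalytic subunits were nearly all α1. Prkaa1 (chr15:5173186-5211750, plus strand), which encodes α1, had 110.1, 122 and 117 CPM in WT and 114, 119 and 132 CPM in Drp1 KO libraries. The groups overlapped, and the log2 fold change was 0.06 ± 0.095 (SE; edgeR adjusted p = 0.832), with a 95% interval of the fold from 0.903 to 1.21. After the GC correction the value was -0.05, and it ran from 0.01 to 0.10 with a library left out, so no direction can be given for this gene. Prkaa2 (chr4:104886845-104967102, minus strand), which encodes the α2 of muscle and heart, had 2.11, 1.99 and 2.08 CPM in WT and 1.54, 2.23 and 2.73 CPM in Drp1 KO libraries. Its Drp1 KO values enclosed the WT values, and with 34 to 89 reads per library the interval of the fold was wide, 0.713 to 1.58 (log2 fold change 0.09, edgeR adjusted p = 0.932; -0.05 after the GC correction and -0.11 to 0.26 with a library left out).

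The β subunits, which join α to γ and carry the glycogen-binding module, were on the lower side in Drp1 KO without passing a test, and Prkab2 was at 0.02 (log2 fold change) with length-scaled counts. Prkab1 (chr5:116151645-116162567, minus strand), encoding β1, had 18.0, 16.04 and 15.1 CPM in WT and 14.8, 16.2 and 13.0 CPM in Drp1 KO libraries. The groups overlapped, with a log2 fold change of -0.16 ± 0.13 (SE; edgeR adjusted p = 0.632), which moved to -0.07 when Drp1 KO library 3 was left out and to -0.09 when WT library 1 was, and was -0.10 after the GC correction. Prkab2 (chr3:97565509-97581146, plus strand), encoding β2, had 27.0, 29.5 and 30.2 CPM in WT and 25.2, 28.1 and 26.5 CPM in Drp1 KO libraries. It was lower in each pair, with a log2 fold change of -0.12 ± 0.10 (SE; edgeR adjusted p = 0.654).

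The γ subunits, which bind AMP, ADP and ATP, lay on opposite sides of 0. Prkag1 (chr15:98710177-98729434, minus strand), encoding the widely expressed γ1, had 11.7, 13.7 and 15.3 CPM in WT and 15.2, 16.4 and 18.2 CPM in Drp1 KO libraries. Each Drp1 KO library was above the WT library of its number (log2 ratios 0.37, 0.26 and 0.26), while Drp1 KO library 1 was just below WT library 3. The log2 fold change was 0.29 ± 0.14 (SE; edgeR unadjusted p = 0.0562, adjusted p = 0.320). Prkag2 (chr5:25067728-25306439, minus strand), encoding γ2, had 52.5, 42.8 and 41.1 CPM in WT and 43.6, 38.7 and 32.7 CPM in Drp1 KO libraries. It was lower in each pair (log2 ratios -0.27, -0.15 and -0.33), with Drp1 KO library 1 among the WT values, and the log2 fold change was -0.25 ± 0.14 (SE; edgeR unadjusted p = 0.0981, adjusted p = 0.419). Leaving out 1 library moved it to -0.36 (Drp1 KO library 1), -0.14 (Drp1 KO library 3) or -0.13 (WT library 1). With the replicate block the adjusted p was 0.0752 for Prkag1 and 0.0734 for Prkag2.

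Between genes, levels were compared in TPM, the kallisto estimate scaled for transcript length and library size. In WT, Cab39 stood first with 222 ± 27.3 TPM (SD, n = 3). Prkaa1 (44.1 ± 3.73), Prkag2 (36.1 ± 7.05) and Stk11 (31.6 ± 1.86 TPM) followed, and neighbours in this order overlapped. Prkag1 (18.6 ± 4.25), Prkab1 (11.9 ± 0.341) and Prkab2 (9.48 ± 0.327 TPM) were each apart from the gene before. Strada (8.62 ± 1.09 TPM) overlapped with Prkab2, Camkk2 (7.15 ± 0.269 TPM) came next, just apart from it, and Prkaa2 was last with 0.440 ± 0.0273 TPM. In Drp1 KO the first 7 genes and the last kept their places, with Cab39 at 236 ± 19.6, Prkaa1 at 43.6 ± 5.16 and Prkaa2 at 0.441 ± 0.138 TPM. Camkk2 (8.27 ± 0.555 TPM) there stood before Strada (6.85 ± 1.32 TPM), Prkag2, Stk11 and Prkag1 overlapped in turn, and Prkab1, Prkab2, Camkk2 and Strada formed a run in which each overlapped with the next. In both groups the mRNA levels of Stk11 and Camkk2 were below that of Prkaa1 and above that of Prkaa2, and the level of Cab39 was above both.

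Within the subunit pairs, Prkaa1 held 99.0 ± 0.0791% of the summed α TPM in WT and 99.0 ± 0.204% in Drp1 KO (SD, n = 3; exact permutation p = 1.0). Prkab1 held 55.6 ± 1.55% of the β TPM in WT and 52.5 ± 2.92% in Drp1 KO (exact permutation p = 0.2), with the order turned when protein-coding transcripts alone were added (59.8% and 60.2%). Prkag1 held 23.7%, 38.7% and 40.5% of the summed Prkag1 and Prkag2 TPM in WT and 37.0%, 41.7% and 50.3% in Drp1 KO libraries. Each Drp1 KO library was above the WT library of its number, the groups overlapped, and the means were 34.3 ± 9.24% and 43.0 ± 6.72% (exact permutation p = 0.4). These two-sided tests of 3 against 3 libraries cannot go below 0.1, and over the 3 shares the smallest Benjamini-Hochberg adjusted p was 0.6.

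**Figure D3:**
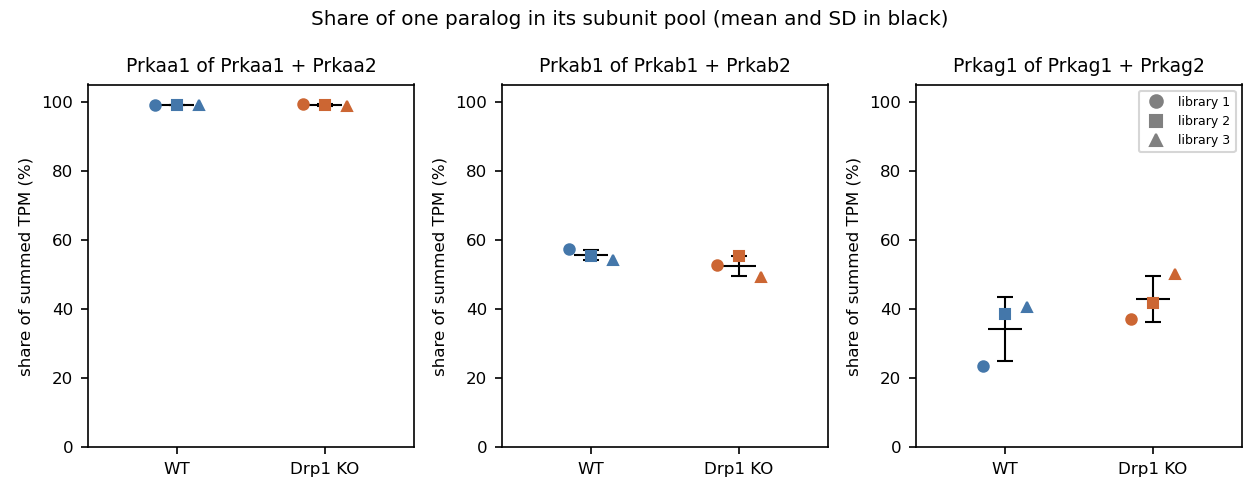
Share of the first-named gene in the summed TPM of its subunit pair (y axis, percent, from 0) in each library (points, shaped by library number, WT in blue and Drp1 KO in orange), with the mean and SD in black. The α pool is nearly all Prkaa1 in every library, the β pool is split about evenly, and the γ pool ranges from 23.7% to 50.3% Prkag1.

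The deposited tables give each transcript its own estimate, which shows where the reads of a gene were placed. The 10 genes have 64 transcripts there, of which 54 were tested and 26 held at least 10% of their gene's TPM in either group. Of these 26, 17 have another version in the annotation used here, so their annotated starts and exons may differ from those quantified. None had an edgeR adjusted p under 0.05, against 0.334% of all transcripts tested. An unadjusted p under 0.05 was found for 6 of the 54, against 10.3% of all, and 13 of the 54 did not overlap between the groups in TPM (6 higher, 7 lower in Drp1 KO), against 17.7% of all. The split of reads between transcripts that share most of their bases is an estimate, and the tables hold no error for it.

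Prkaa1 showed a wide gap between its transcripts. Prkaa1-201 had 37.4, 45.0 and 40.5 TPM in WT and 24.4, 20.1 and 29.4 TPM in Drp1 KO libraries (log2 fold change -0.65 ± 0.15 (SE), edgeR unadjusted p = 0.0036, adjusted p = 0.176). Prkaa1-202 had 2.54, 0.380 and 6.52 TPM in WT and 14.7, 22.5 and 19.8 TPM in Drp1 KO libraries (log2 fold change 2.71 ± 0.80, edgeR unadjusted p = 0.0112, adjusted p = 0.288). That fold rested on single libraries, with a log2 value of 3.70 without WT library 3 and 2.17 without WT library 2. No library of either group overlapped with the other group, and the share of Prkaa1-202 in the gene averaged 7.02% in WT and 43.6% in Drp1 KO, while the sum of both overlapped between the groups. In the tables the transcripts are 4655 and 4618 bases long, a difference of 37 bases, and in the annotation used here both have 9 exons and 4781 bases under newer versions. The bases that tell them apart in the deposited index therefore could not be placed here.

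Both Prkag2 and Cab39 have transcripts that begin at different first exons. Prkag2-201, the long form, had 13.2, 10.1 and 12.3 TPM in WT and 10.0, 7.79 and 6.86 TPM in Drp1 KO libraries. All Drp1 KO values were below all WT values, by 0.0560 TPM between the nearest libraries, with a log2 fold change of -0.44 ± 0.20 (SE; edgeR adjusted p = 0.525). Prkag2-203, which starts 192972 bases downstream, had 6.07, 6.96 and 4.54 TPM in WT and 6.59, 7.84 and 6.33 TPM in Drp1 KO libraries, overlapping groups with a log2 fold change of 0.33 ± 0.23 (SE; edgeR adjusted p = 0.749). The difference between the changes of these transcripts was not tested.

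The bases upstream of these annotated Prkag2 starts are shown. Prkag2-201 held 33.2% and Prkag2-203 16.5% of the Prkag2 TPM in WT (28.7% and 24.2% in Drp1 KO), and other transcripts held the rest. Each line gives 200 bases of GRCm39 on the minus strand, 5′ to 3′, with CpG dinucleotides in capitals: chr5:25306440-25306639 for the distal start, and chr5:25113508-25113707 for the proximal start, taken before the outermost of its closely clustered annotated starts. Prkag2-204 is annotated to start further out, at chr5:25113975, so the proximal window lies within its span.
Prkag2-201: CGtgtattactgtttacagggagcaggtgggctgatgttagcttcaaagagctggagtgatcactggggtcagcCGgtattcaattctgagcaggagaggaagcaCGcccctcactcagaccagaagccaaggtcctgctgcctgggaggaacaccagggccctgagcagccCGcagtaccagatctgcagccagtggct
Prkag2-203: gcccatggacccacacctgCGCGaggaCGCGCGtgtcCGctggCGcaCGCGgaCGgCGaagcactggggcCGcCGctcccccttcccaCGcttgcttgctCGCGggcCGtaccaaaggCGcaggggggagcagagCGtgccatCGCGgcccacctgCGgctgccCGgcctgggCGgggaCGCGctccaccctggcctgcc
The distal window holds 4 CpG dinucleotides (observed over expected 0.244, above 32.8% of all protein-coding windows) and none of the 3 motifs. The proximal window holds 26 CpG dinucleotides (0.892, above 89.2% of all windows) and 1 GGGCGG, on the strand shown. Among the 14 distinct start windows of the 10 genes, 11 were above the median ratio of all genes, 7 had a GGGCGG match on either strand, 2 a CCAAT match, and none a TATA box.

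Cab39-202 carried most of Cab39, with 194, 145 and 143 TPM in WT and 173, 156 and 148 TPM in Drp1 KO libraries (log2 fold change 0.05, edgeR adjusted p = 0.979). Cab39-201, with another first exon in the annotation, had 54.6, 55.6 and 63.4 TPM in WT and 83.5, 66.1 and 75.1 TPM in Drp1 KO libraries. Its groups did not overlap, with a log2 fold change of 0.46 ± 0.13 (SE; edgeR unadjusted p = 0.0086, adjusted p = 0.257).

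**Figure D4:**
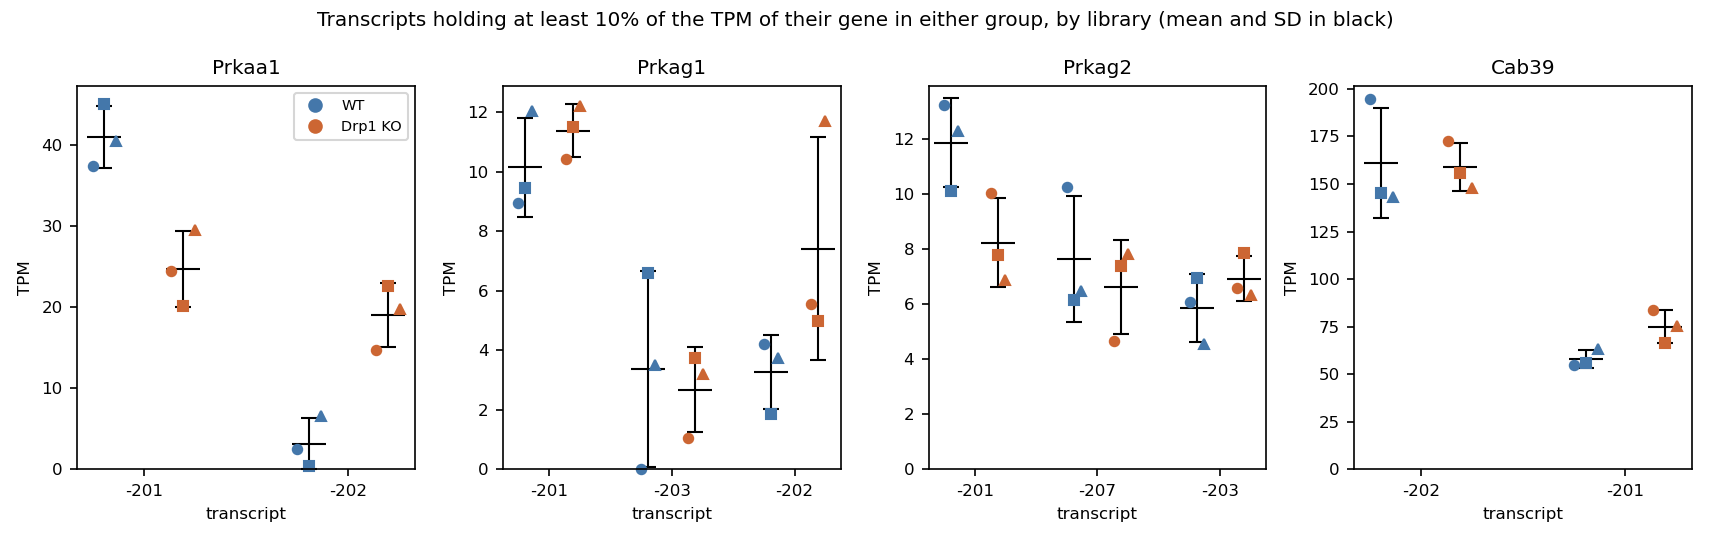
TPM (y axis, from 0) of the transcripts with at least 10% of their gene's TPM in either group, for Prkaa1, Prkag1, Prkag2 and Cab39, in each library (points, WT in blue and Drp1 KO in orange; circle, square and triangle for libraries 1, 2 and 3), with the mean and SD in black. Prkaa1-201 is lower and Prkaa1-202 higher in each Drp1 KO library, and Cab39-201 is at 54.6 to 63.4 TPM in WT and 66.1 to 83.5 TPM in Drp1 KO.

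Camkk2-201 carried 50.6% of the Camkk2 TPM in WT and 57.3% in Drp1 KO. It had 3.77, 3.28 and 3.81 TPM in WT and 4.43, 4.61 and 5.16 TPM in Drp1 KO libraries, with no overlap and a log2 fold change of 0.45 ± 0.14 (SE; edgeR unadjusted p = 0.0127, adjusted p = 0.304; unadjusted p = 0.0570 without WT library 2). The shorter Camkk2-202, with 0.919 ± 0.224 TPM in WT and 0.623 ± 0.111 TPM in Drp1 KO, lay on the other side (log2 fold change -0.43, edgeR adjusted p = 0.881). Its groups did not overlap in TPM either, with 0.724 TPM in WT library 3 and 0.703 TPM in Drp1 KO library 1. The third named transcript, Camkk2-211, was at 0.682 ± 0.291 and 1.05 ± 0.380 TPM.

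Among the transcripts of the γ1 and β2 genes, Prkag1-202 and Prkab2-204 had an unadjusted p under 0.05. Prkag1-202 had 4.21, 1.86 and 3.73 TPM in WT and 5.54, 4.99 and 11.7 TPM in Drp1 KO libraries (log2 fold change 1.26 ± 0.50 (SE), edgeR unadjusted p = 0.0393, adjusted p = 0.448), while Prkag1-201 had 10.1 ± 1.66 and 11.38 ± 0.892 TPM. Prkag1-202 held 19.0% of the Prkag1 TPM in WT and 32.8% in Drp1 KO on average, with the highest value in Drp1 KO library 3. Its unadjusted p was 0.167 without that library, 0.113 without WT library 2 and 0.0847 without WT library 3. Prkab2-204, annotated as a target of nonsense-mediated decay, was at 0, 0.213 and 0 TPM in WT and 1.78, 1.71 and 0.783 TPM in Drp1 KO libraries (edgeR unadjusted p = 0.0079, adjusted p = 0.247). The coding form Prkab2-201 had 7.29 ± 1.23 and 5.98 ± 0.812 TPM. For Stk11, the full-length Stk11-201 had 13.8 ± 2.47 TPM in WT and 9.99 ± 1.70 TPM in Drp1 KO, and Stk11-202, which starts within the gene, had 9.29 ± 3.31 and 11.1 ± 1.98 TPM. Both overlapped between the groups, with log2 fold changes of -0.40 and 0.36 (edgeR adjusted p = 0.577 and 0.797). Strada-201 (2.66 ± 0.115 and 2.11 ± 0.333 TPM) and Strada-203 (1.501 ± 0.172 and 0.886 ± 0.368 TPM) did not overlap between WT and Drp1 KO and had adjusted p-values of 0.877 and 0.594. Strada-202 (1.83 ± 0.599 and 2.04 ± 0.580 TPM) had a log2 fold change above 0 (0.24, edgeR adjusted p = 0.943) with overlapping groups, and Strada-205 (1.82 ± 1.33 and 1.253 ± 0.872 TPM) overlapped too (log2 fold change -0.36, edgeR adjusted p = 0.962). Prkab1-202 carried 80.0% and 78.8% of Prkab1 and Prkab1-201 10.9% and 11.5%, and Prkaa2-201 was the only Prkaa2 transcript in the tables. The named forms with retained introns all overlapped between the groups: Prkab2-203 (1.12 ± 0.296 and 0.776 ± 0.383 TPM), Prkag1-203 (3.36 ± 3.301 and 2.67 ± 1.42 TPM), Prkag2-207 (7.62 ± 2.29 and 6.62 ± 1.72 TPM) and Stk11-207 (3.43 ± 2.48 and 2.29 ± 1.27 TPM).

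The rest of the pathway was read from 70 further genes in 7 lists, of which 69 were tested. None had an edgeR adjusted p under 0.05, 10 had an unadjusted p under 0.05 (16.4% of all genes did), and 4 were higher and 3 lower by the study's criteria, beside 7.19% of all genes higher and 5.48% lower. Their median log2 fold change was 0.0333. With the replicate block, 9 had an adjusted p under 0.05 (5 higher, 4 lower), against 12.0% of all genes, and DESeq2 called 5, against 6.24% of all genes. The calls were 1 with scaling by library size only, against 3.95% of all genes, and 3 with no filter beyond 1 count, against 4.43%. These shares are near the background. Without Drp1 KO library 1, 3 had an adjusted p under 0.05 (0.0083 for Lamtor5, 0.0150 for Lamtor2 and 0.0361 for Foxo3), against 4.96% of all genes, and without WT library 1, Nuak2 had one of 0.0439, against 4.08% of all genes. The number past the study's criteria was 12 without WT library 1 (14.8% of all genes) and 11 without Drp1 KO library 3 (12.0% of all genes). These lists were drawn up with earlier results of the same libraries known.

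The relatives of the 10 genes did not pass. Prkag3, the γ3 of skeletal muscle, was at most 1.02 CPM, and Camkk1, the sister kinase of CAMKK2, was at most 0.227 CPM. The second MO25 gene Cab39l was at 32.3 to 35.6 CPM in WT and 36.3 to 42.4 CPM in Drp1 KO (log2 fold change 0.21, edgeR adjusted p = 0.363). Stradb was at 20.6 to 27.7 and 19.2 to 21.1 CPM, and Map3k7, which encodes the alternative upstream kinase TAK1, at 71.7 to 72.9 and 66.8 to 70.2 CPM.

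Of the 12 other kinases that LKB1 activates, 11 were tested, with 5 log2 fold changes above 0 and 6 below and a median of -0.0315. The NUAK kinases met the study's criteria in opposite directions, against 12.7% of all genes past them. Nuak2 was 25.4, 21.8 and 21.0 CPM in WT and 31.01, 28.4 and 31.4 CPM in Drp1 KO libraries (log2 fold change 0.42 ± 0.11 (SE), edgeR adjusted p = 0.0808). Nuak1 was 17.4, 12.4 and 12.9 CPM in WT and 10.3, 8.77 and 10.3 CPM in Drp1 KO libraries (log2 fold change -0.54 ± 0.16, edgeR adjusted p = 0.109). With length-scaled counts the log2 fold change of Nuak2 was 0.20 (unadjusted p = 0.146), and with the replicate block the adjusted p was 0.0129 for Nuak2 and 0.0150 for Nuak1. Mark1 had too few reads to be tested.

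Among 19 other regulators, 12 log2 fold changes were above 0 and 7 below (median 0.0546). By the study's criteria 2 were higher and 1 lower, beside 7.19% of all genes higher and 5.48% lower. These included 2 subunits of Ragulator, the lysosomal complex on which LKB1 meets AMPK and to which mTORC1 is recruited. Lamtor5 was 33.9, 32.5 and 33.9 CPM in WT and 38.2, 52.0 and 51.0 CPM in Drp1 KO libraries (log2 fold change 0.50 ± 0.13 (SE), edgeR adjusted p = 0.0669). Lamtor2 was 36.4, 33.5 and 30.3 CPM in WT and 29.6, 22.0 and 17.9 CPM in Drp1 KO libraries (log2 fold change -0.53 ± 0.17, edgeR adjusted p = 0.136). For both genes the groups did not overlap, and the other 3 Ragulator genes did not meet the criteria. Ppm1e, encoding a phosphatase that removes the activating phosphate of AMPK, had 0.259, 0.525 and 0.409 CPM in WT and 0.908, 1.19 and 0.705 CPM in Drp1 KO libraries. It was low throughout, at 6 to 39 reads per library (log2 fold change 1.22 ± 0.41, edgeR adjusted p = 0.162), and its unadjusted p was 0.200 with length-scaled counts and 0.0730 without Drp1 KO library 2.

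Of 12 AMPK substrates in metabolism, among them the acetyl-CoA carboxylases, none met the study's criteria (median log2 fold change -0.0485), and none of 8 substrates in autophagy, mitochondrial fission and growth did (median 0.0750). Mff, the receptor that brings DRP1 to mitochondria, is named here after its values were seen. It was 48.1, 47.8 and 47.0 CPM in WT and 52.9, 63.4 and 59.1 CPM in Drp1 KO libraries, with no overlap, a log2 fold change of 0.30 under the study's cutoff (edgeR adjusted p = 0.149) and an adjusted p of 0.0405 with the replicate block. With the GC correction added to the block, its log2 fold change was 0.19 (adjusted p = 0.151). Fnip2 and Sesn1, of the 19 other regulators and also named after their values were seen, had adjusted p-values of 0.0321 and 0.0347 with the block (log2 fold changes 0.29 and -0.31). Without the block their edgeR adjusted p-values were 0.654 and 0.346 (log2 fold changes 0.27 and -0.30), and the groups overlapped for both. In the fit without the block, the value of Fnip2 was 0.04 when Drp1 KO library 1 was left out and 0.59 when WT library 1 was. That of Sesn1 was -0.46 when Drp1 KO library 3 was left out and -0.20 when WT library 3 was. Of 7 substrates in transcription, Foxo3 met the study's criteria, against 12.7% of all genes. This transcription factor of stress and starvation responses was 419.5, 361 and 395 CPM in WT and 327, 283 and 283 CPM in Drp1 KO libraries, with no overlap and a log2 fold change of -0.40 ± 0.10 (SE; edgeR adjusted p = 0.0725). In the mTORC1 arm, 1 of 9 genes met these criteria, against the same 12.7%. Rheb, the GTPase that switches on mTORC1 and is held off by the TSC complex that AMPK phosphorylates, was 62.4, 53.2 and 57.5 CPM in WT and 85.1, 76.8 and 66.0 CPM in Drp1 KO libraries (log2 fold change 0.40 ± 0.12, edgeR adjusted p = 0.103; unadjusted p = 0.0868 with length-scaled counts; log2 fold change 0.30 without Drp1 KO library 1). With the replicate block the adjusted p was 0.0049 for Foxo3, 0.0127 for Rheb, 0.0114 for Lamtor5 and 0.0055 for Lamtor2.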

How the data were processed

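The authors quantified paired-end poly(A) reads with kallisto (0.46.1 in the submitters' processing notes) on Ensembl cDNA of GRCm39 and deposited estimated counts and TPM per transcript for each library. The release and options were not given in the sources used here. Transcripts were matched to the GENCODE M39 annotation (99.4%), and deposited estimated counts were summed per gene and rounded. Genes with at least 10 counts were tested with edgeR 4.0.16 (R 4.3.3, TMM, quasi-likelihood, no covariate, Benjamini-Hochberg over all genes). Transcripts were tested likewise, and TPM shares by exact permutation. On simulated data with 200 changed features, drawn from those with higher mean counts, the gene test recovered 84% of 2-fold changes (18154 genes, 15 false calls). Recovery of smaller changes, or of changes in genes with few reads, was not simulated. The transcript test recovered 0% of 2-fold and 74.5% of 8-fold changes (59259 transcripts for the latter). Same-numbered libraries correlated at 0.539, 0.218 and 0.352 in their deviations from the group mean (12248 genes), each over 0.1, so the numbers were taken, from the data, to pair the libraries. Pairs with different numbers ran from -0.481 to 0.339, the latter for WT library 2 with Drp1 KO library 3, above the value of the libraries numbered 2. Chi-square per degree of freedom was at least 10.4 within groups, so no library was a copy. The labels and the methods differ on the oxygen level, the L929 medium and the RNA kit. The members and lists were chosen with earlier results of these data known. All 10 genes were named, with transcripts holding at least 10% of their gene's TPM, and Dnm1l. Other pathway genes were named when past the study's criteria (up to 4 per list) in the reported fit, or at an adjusted p under 0.05 there or with the replicate block. Genes called under other settings alone were given as counts. Alternatives were DESeq2 1.42.0, limma-voom (limma 3.58.1), other size factors and filters, length-scaled counts, a GC correction, a replicate block and leaving out each library.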

Additional observations from a re-analysis of the deposited data

How the results depend on the processing

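Of the 10 genes, 1 met the study's criteria in the reported fit, 0 with length-scaled counts (13.6% of all genes) and 1 to 4 with a library left out. The number with an adjusted p under 0.05 was 0 in the reported fit and 1, Camkk2, under DESeq2, the GC correction, the replicate block and the replicate block with GC correction. Of the other pathway genes, 7 met the criteria and 7 to 12 did with a library left out (12 when WT library 1 was left out, against 14.8% of all genes, and 11 when Drp1 KO library 3 was, against 12.0%). Their number with an adjusted p under 0.05 was 0 in the reported fit, 5 under DESeq2 (6.24% of all genes), 1 under the GC correction (4.01%), 1 with library size only (3.95%), 3 with no filter beyond 1 count (4.43%), 9 with the replicate block (12.0% of all genes), 11 with the block and GC correction (10.9% of all genes), and 0 to 3 with a library left out. The pairing by replicate number changed no call on transcripts, of which 0 had an adjusted p under 0.05 with the block. Signs turned for Prkaa1 (-0.049 after the GC correction and -0.050 with the block added), Prkaa2 (-0.050, -0.052 with the block added and -0.11 to 0.26 with a library left out, negative without Drp1 KO library 3), Prkab2 (0.020 with length-scaled counts), the Prkaa1 share (-0.107 to 0.0900 percentage points with a library left out, -0.0336 without WT library 1) and the Prkab1 share (0.413 percentage points with protein-coding transcripts only, against -3.17). The causes were not tested. The Prkab1 share with a library left out ran from -4.55 to -1.64 and the Prkag1 share from 3.40 to 11.8 percentage points. At 34 to 89 reads per library Prkaa2 allows no firm statement, and the transcript test recovered no 2-fold changes in simulated data.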
